A study of Mus musculus with 20 samples.

Results

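The cell cycle inhibitors described here are 10 genes: Cdkn1a, Cdkn1b and Cdkn1c, which encode p21, p27 and p57 of the CIP/KIP family, Cdkn2a, Cdkn2b, Cdkn2c and Cdkn2d of the INK4 family, and Rb1, Rbl1 and Rbl2, which encode the pocket proteins pRB, p107 and p130. They were taken by gene name from a table of 53380 genes, in which each of the 10 has 1 row. RNA was measured in bulk in cells sorted by flow cytometry from the dorsal epidermis of mice. The 5 populations were Thy1hi cells (α6+Sca1+Thy1hi, 4 libraries) and Thy1- cells (α6+Sca1+Thy1-, 4 libraries) of the interfollicular epidermis, YFP+ cells (α6+Sca1+Thy1hiYFP+, 3 libraries), hair follicle stem cells (HFSCs, α6+Sca1-CD34+, 4 libraries) and dendritic epidermal T cells (DETCs, α6-Sca1lowThy1+, 5 libraries), where α6 is Integrin-α6 and Sca1 a surface antigen of interfollicular and infundibular keratinocytes.

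The labels give the genotype Thy1.2CreERT2-Rosa26-EYFP and no treatment for every sample, with ages from 8 to 27 weeks that rise by a week from each sample to the next, so that the populations do not share an age. By the methods, the mice were 8 weeks old, the Thy1hi, Thy1-, HFSC and DETC libraries came from wild-type C57BL/6J mice, and the YFP+ cells came from tamoxifen-treated mice in which a Thy1 promoter drives an inducible Cre that switches on EYFP. The YFP+ label names these cells negative for Sca1, whereas the methods name them positive. The labels do not say which mice entered which library, the legends speak of pooled mice, and they give fewer mice for DETCs and more for HFSCs than there are libraries here. The p-values therefore measure the spread between libraries, which may be in part technical.

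The defining markers bore out the labels of the populations in part. The summed normalized counts of 8 T cell markers were 21784 to 44100 in the DETC libraries and 129 to 449 in all others. Those of 7 basal keratinocyte markers were 12376 to 58632 in DETCs and 76089 to 270574 elsewhere, so that the DETC libraries held keratinocyte RNA as well, and the other libraries held a little of the T cell markers, none of which was at 0 throughout a population. The 7 HFSC markers summed to 7049 to 10942 in HFSCs and 842 to 3142 elsewhere. Reads on genes numbered 7781256 to 12982393 per library, of which 13.1% to 41.5% fell on the ribosomal RNA gene Rn45s. HFSC replicate 4 had the lowest share, 13.1%, as well as the lowest sum of Langerhans cell markers (408, against a median of 3930 in its population). Its sums were also the lowest of the HFSC libraries for basal (76089), HFSC (7049), suprabasal (27794), T cell (174) and fibroblast markers (225). For melanocyte markers (264) its sum was not the lowest.

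Progression from G1 into S phase is driven by cyclin D with CDK4 or CDK6 and by cyclin E with CDK2, which phosphorylate the pocket proteins and so release E2F transcription factors. INK4 proteins bind CDK4 and CDK6, CIP/KIP proteins bind cyclin-CDK complexes more widely, and hypophosphorylated pocket proteins hold E2F target genes silent, p107 and p130 within the DREAM complex. In skin, p21 and p27 are known to restrain keratinocyte and follicle stem cell proliferation, p130 is typical of quiescent cells, and p107 is itself a product of an E2F target gene that is highest in cycling cells.

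The results turned on Rb1, Rbl2 and Cdkn1b, which were high in DETCs, and on Rbl1, which went the other way. RefSeq promoters (build GRCm38.p6) were matched for 8 of the 10 genes, and the 250 bases before the start are shown for Rbl1, Rbl2 and Cdkn1b, as the members with the clearest differences for which a sequence was matched. The stretches lie at chr2:157204535-157204784 on the minus strand for Rbl1, chr8:91069807-91070056 on the plus strand for Rbl2 and chr6:134920151-134920400 on the plus strand for Cdkn1b, each ending at the base before the gene. Capitals mark an E2F-type word in Rbl1, a CHR word (the element bound by DREAM at late cell cycle genes) in Rbl2, here read on the other strand, and CCAAT boxes in Cdkn1b.

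Rbl1: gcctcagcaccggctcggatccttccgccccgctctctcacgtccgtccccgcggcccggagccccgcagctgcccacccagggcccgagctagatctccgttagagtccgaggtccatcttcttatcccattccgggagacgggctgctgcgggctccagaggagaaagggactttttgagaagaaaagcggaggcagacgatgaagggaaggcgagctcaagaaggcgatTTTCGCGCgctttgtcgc

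Rbl2: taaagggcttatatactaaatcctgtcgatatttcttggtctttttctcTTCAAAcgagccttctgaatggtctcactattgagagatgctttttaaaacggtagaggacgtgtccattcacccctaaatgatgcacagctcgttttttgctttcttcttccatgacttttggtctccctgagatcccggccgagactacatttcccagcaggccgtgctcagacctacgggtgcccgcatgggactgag

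Cdkn1b: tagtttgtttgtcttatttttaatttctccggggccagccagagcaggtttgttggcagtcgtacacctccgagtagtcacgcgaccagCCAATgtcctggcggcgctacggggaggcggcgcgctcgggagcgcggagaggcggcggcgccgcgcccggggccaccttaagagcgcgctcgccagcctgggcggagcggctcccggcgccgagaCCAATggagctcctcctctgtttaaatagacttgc

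The words searched on both strands were TTTCCCGC or TTTGGCGC or TTTCGCGC or TTTGCCGC (E2F type), GTAAACA (FOXO type), TTTGAA (CHR), CCAAT and GGGCGG (GC box). In Rbl1, TTTCGCGC began 18 bases before the start, and 1.86% of 32851 RefSeq promoters of the same length held a word of the E2F type. Cdkn2a, with TTTCCCGC 99 bases before its start, was the other member with one. The CHR word of Rbl2 began 201 bases before the start and is held by 16% of promoters, as it is by Cdkn2b 161 bases before its start. CCAAT, held by 33.8%, lay 161 and 35 bases before the start of Cdkn1b, and a GC box, held by 32.7%, 61 bases before it. No member had the FOXO word, which 3.17% of promoters held. These matches describe letters in a window and are not sites shown to be used.

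Levels can be compared between genes only per length, and per kb of exon the members spanned a wide range (the plot of levels per kb of exon). In Thy1hi cells the mean normalized count per kb was highest for Cdkn1a (246), followed by Cdkn1b (97.5), Cdkn2d (96.7), Rbl1 (56.1), Rb1 (36), Rbl2 (34.8), Cdkn2c (24.4), Cdkn2b (8.4) and Cdkn1c (6.82). In DETCs it was 348 for Cdkn1a, 332 for Cdkn1b, 166 for Rb1 and 142 for Rbl2, whereas Rbl1 stood at 22.9. In HFSCs the order began with Cdkn1a (226), Cdkn1b (129), Rbl2 (56.2) and Rb1 (54.1). Cdkn1a therefore had the highest mean level per kb of the 10 genes in each of these 3 populations, and also in Thy1- (279) and YFP+ cells (213). In DETCs and HFSCs the spread between libraries of Cdkn1a and Cdkn1b overlapped, so that their order was not resolved there.

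**Figure D1:**
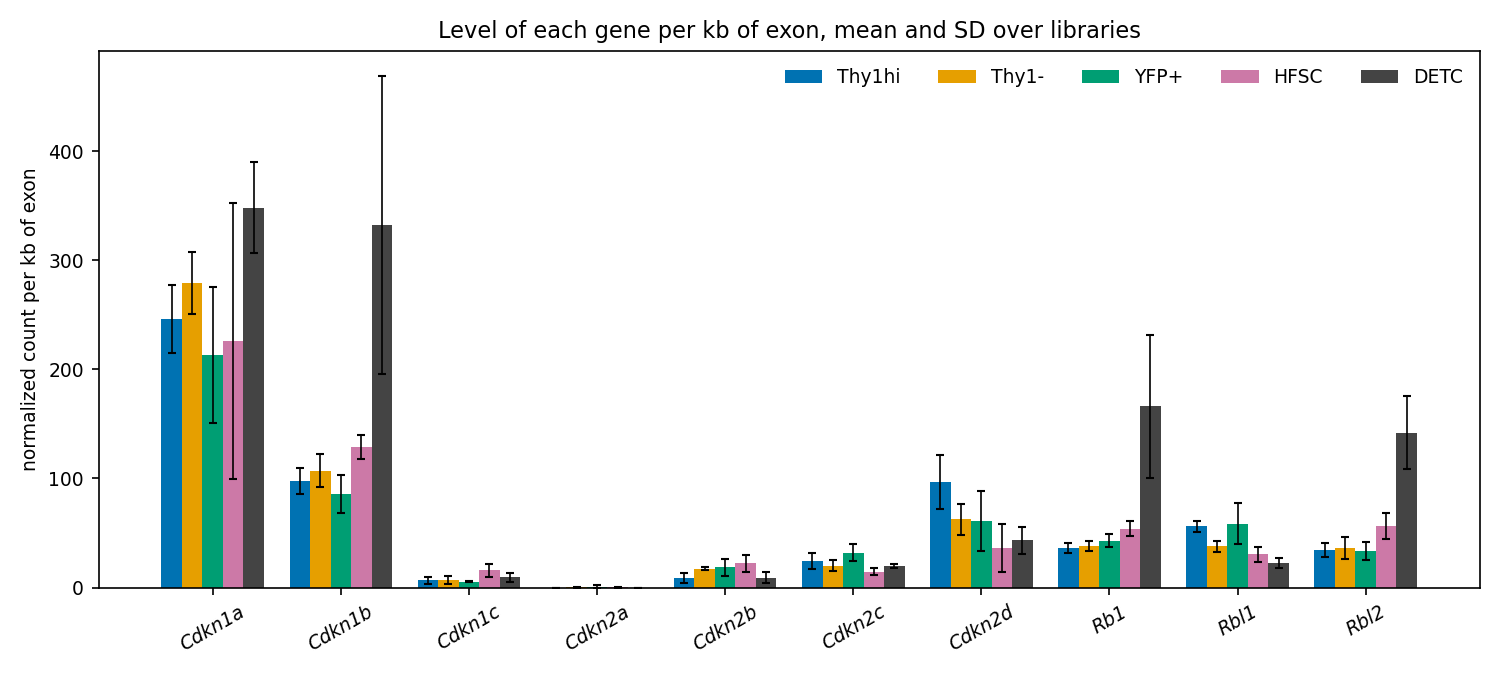
Mean level of each of the 10 genes per kb of exon in the 5 populations, with SD over libraries, on a linear axis from 0. Cdkn1a is the highest in each population by its mean (213 to 348), and Cdkn1b, Rb1 and Rbl2 stand out in DETCs.

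Among the CIP/KIP inhibitors, Cdkn1b separated the T cells from all keratinocyte populations. Cdkn1b (ENSMUSG00000003031.14, chr6:134920401-134925513, mm10) had normalized counts (reads divided by a size factor per library) of 1307, 1416, 1258, 2584 and 982 in DETCs, 575, 663, 573 and 545 in HFSCs, 574, 415, 458 and 506 in Thy1- cells, 380, 508, 437 and 451 in Thy1hi cells, and 301, 427 and 444 in YFP+ cells. Every DETC library was above every library of the other populations. The means were 1509 ± 621 (SD, n = 5) in DETCs and 444 ± 52.9 (n = 4) in Thy1hi cells, a log2 difference of 1.69 ± 0.21 (SE) or 3.23-fold, with an adjusted p of 1.85e-06 by limma. In bulk samples such as these, fewer cells of a type and less RNA per cell cannot be told apart. Against HFSCs the log2 difference was 1.28 (adjusted p = 5.59e-05 by limma). The order of mean log2 levels then ran HFSC, Thy1-, Thy1hi and YFP+, with no neighbours beyond DETCs and HFSCs that differed past the threshold (adjusted p from 0.447 to 0.999 by limma).

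Cdkn1a, the p53-inducible inhibitor (ENSMUSG00000023067.13, chr17:29090979-29100722), was high in every population, and no pair of neighbours in its order of levels differed past the threshold. DETCs had 1119, 1230, 1065, 1412 and 1355 normalized counts, Thy1- cells 1142, 928, 933 and 957, Thy1hi cells 889, 1022, 774 and 807, YFP+ cells 971, 774 and 527, and HFSCs 1004, 841, 1205 and 167. HFSC replicate 4 was thus far below the 3 other HFSC libraries, while the DETC libraries did not overlap with the Thy1hi libraries. DETCs exceeded Thy1hi cells by 0.50 on the log2 scale (95% interval -0.27 to 1.28, adjusted p = 0.329 by limma, exact permutation p = 0.0159, the smallest that 5 against 4 allows). Of 21 alternatives, 2 passed. The fit of only these 2 populations did (adjusted p = 0.0211 by limma). So did that with the replicate number as a block (log2 difference 0.35, adjusted p = 0.0339 by limma). The block fit leaves out Thy1hi replicate 4 and DETC a and b, and the number did not pair these libraries. Cdkn1a did not pass by edgeR or DESeq2, nor without any 1 DETC or Thy1hi library (adjusted p 0.317 to 0.465 by limma). Without HFSC replicate 4, which lies outside this comparison but enters the shared estimate of the spread, it passed (0.0189). The log2 difference of Thy1hi cells from HFSCs was 0.43, and -0.21 without HFSC replicate 4, so that its sign rested on 1 library (adjusted p = 0.496 and 0.495 by limma). The same held for Thy1- cells against HFSCs, with 0.62 and, without that library, -0.03.

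Cdkn1c, the imprinted inhibitor p57 (ENSMUSG00000037664.13, chr7:143458339-143461050), was scarce, with 4 to 39 reads per library. It had 45, 33.7, 35.3 and 16.1 normalized counts in HFSCs, where its mean was highest (32.5 ± 12), 21.5, 27.5, 19, 21.9 and 4.8 in DETCs, 10.9, 24.3, 13.4 and 7.38 in Thy1- cells, 19.9, 18.4, 5.69 and 11.6 in Thy1hi cells, and 12, 11.6 and 9.91 in YFP+ cells. The lowest HFSC library lay within the range of DETCs, Thy1hi and Thy1- cells. The difference of Thy1hi cells from HFSCs was -1.21 on the log2 scale (95% interval -2.26 to -0.17) with an adjusted p of 0.118 by limma, and that of Thy1- cells -1.19 (adjusted p = 0.157 by limma).

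In the INK4 family, Cdkn2a, which encodes p16INK4a and p19ARF (ENSMUSG00000044303.6, chr4:89274471-89294653), was at or near 0. It had 6 reads over the 20 libraries, in 4 of them, with at most 3 reads in a library (2.32 normalized counts, in a YFP+ library). In the other 16 libraries no read was counted, and 3 reads, the limit that a count of 0 allows, correspond to 2.1 to 4.12 normalized counts in a library. Expression below this was not detectable at this depth, intervals and limits of this kind cover counting error only, and the gene was not tested. The 9 other members passed the minimum of 10 normalized counts in at least 3 libraries.

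Cdkn2d, encoding p19INK4d (ENSMUSG00000096472.2, chr9:21288410-21291407), was highest in Thy1hi cells. The 4 Thy1hi libraries had 179, 154, 97.5 and 179 normalized counts, Thy1- cells 125, 75.2, 86 and 107, YFP+ cells 66.8, 74.3 and 146, DETCs 96.9, 78.3, 59.3, 60.4 and 45.6, and HFSCs 38.1, 102, 64.1 and 23.8. All Thy1hi libraries were above all DETC libraries, and 1 HFSC library lay within the range of the Thy1hi libraries. Cdkn2d was 2.95-fold higher in Thy1hi cells than in HFSCs (log2 difference 1.56 ± 0.37, adjusted p = 0.00677 by limma, exact permutation p = 0.0571). It was 2.23-fold lower in DETCs than in Thy1hi cells (log2 difference -1.16 ± 0.35, adjusted p = 0.0125 by limma). Its neighbours in the order Thy1hi, Thy1-, YFP+, DETC and HFSC did not differ past the threshold (adjusted p from 0.376 to 0.942 by limma).

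Cdkn2b, the TGF-β-inducible p15INK4b (ENSMUSG00000073802.4, chr4:89306289-89311032), was the member with the lowest mean log2 level in Thy1hi cells among those tested, at 5 to 20 reads per library. It had 5.52, 14.5, 7.32 and 19.4 normalized counts in Thy1hi cells, 8.81, 11.2, 20.6, 4.12 and 19.2 in DETCs, 23.1, 25.4, 26 and 22.1 in Thy1- cells, 36.9, 24.8 and 15.8 in YFP+ cells, and 26.6, 31.5, 46 and 20.3 in HFSCs. The Thy1hi libraries all lay below those of HFSCs and of Thy1- cells. Thy1hi cells were 2.69-fold below HFSCs, a log2 difference of -1.43 ± 0.46 with an adjusted p of 0.0436 by limma. That call was lost without any 1 of HFSC replicates 1, 2 or 3 or Thy1hi replicates 1, 2 or 3 (adjusted p 0.0519 to 0.155), and only 8 of 19 alternatives kept it. DETCs also had a lower mean than HFSCs (log2 difference -1.34, adjusted p = 0.0185 by limma), although 1 DETC library lay just above the lowest HFSC library. That call was lost without DETC a (adjusted p = 0.0572) or without HFSC replicate 3 (0.0711). In Thy1hi against Thy1- cells the log2 difference was -1.13 (95% interval -2.09 to -0.18, adjusted p = 0.518 by limma, exact permutation p = 0.0286, the smallest that 4 against 4 allows).

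Cdkn2c, encoding p18INK4c (ENSMUSG00000028551.14, chr4:109660876-109667189), varied least across populations after Cdkn1a. It had 79.7, 69.7 and 109 normalized counts in YFP+ cells, 60.7, 47.4, 59.3 and 95.1 in Thy1hi cells, 49.9, 54.9, 48.2, 57.6 and 57.6 in DETCs, 47.4, 55.5, 39.4 and 72.1 in Thy1- cells, and 33.5, 44.5, 48.1 and 29.4 in HFSCs. The YFP+ libraries were all above the HFSC libraries, by 1.13 on the log2 scale (adjusted p = 0.0105 by limma), and by 0.95 without YFP+ replicate 3, where the call was lost (adjusted p = 0.0812). Thy1hi cells exceeded HFSCs by 0.72 (95% interval 0.19 to 1.26), with an adjusted p of 0.069 by limma and from 0.0263 to 0.256 over 20 alternatives.

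Of the pocket proteins, Rb1 and Rbl2 were high in DETCs and Rbl1 was low there. Rb1 (ENSMUSG00000022105.6, chr14:73183673-73325822) had 737, 957, 769, 1681 and 841 normalized counts in DETCs, 309, 289, 320 and 383 in HFSCs, 289, 266 and 219 in YFP+ cells, 265, 205, 216 and 232 in Thy1- cells, and 242, 240, 189 and 197 in Thy1hi cells. The DETC libraries did not overlap with any other, and the HFSC libraries all exceeded those of Thy1hi and Thy1- cells. Rb1 was 4.39-fold higher in DETCs than in Thy1hi cells (log2 difference 2.13 ± 0.20, adjusted p = 3.85e-08 by limma), and 1.55 higher on the log2 scale in DETCs than in HFSCs (adjusted p = 2.87e-06). Its difference between Thy1hi cells and HFSCs, -0.58 (95% interval -1.02 to -0.15), had an adjusted p of 0.0698 by limma. It passed in 2 of 20 alternatives, and in none that left out a Thy1hi or HFSC library (adjusted p 0.0716 to 0.162 by limma). Without DETC a, which lies outside this comparison but enters the shared estimate of the spread, the adjusted p was 0.00914. Rcbtb2 and Lpar6 overlap Rb1 on the opposite strand, with mean normalized counts over all libraries of 56.9 and 52, and whether counting used strand is not given in the sources used here.

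Rbl2 (ENSMUSG00000031666.15, chr8:91070057-91123844) had 688, 1178, 1092, 1372 and 1040 normalized counts in DETCs, 433, 329, 393 and 545 in HFSCs, 199, 241, 271 and 378 in Thy1- cells, 258, 203, 267 and 322 in Thy1hi cells, and 241, 194 and 321 in YFP+ cells. DETCs again stood clear of all other libraries, and HFSCs of Thy1hi and YFP+ cells. Rbl2 was 4.03-fold higher in DETCs than in Thy1hi cells (log2 difference 2.01 ± 0.22, adjusted p = 4.27e-07 by limma) and 1.32 higher on the log2 scale in DETCs than in HFSCs (adjusted p = 7.9e-05). Between Thy1hi cells and HFSCs it differed by -0.69 (95% interval -1.18 to -0.20, adjusted p = 0.0571 by limma, and 0.0272 to 0.176 over 20 alternatives, of which 7 passed the threshold). Aktip overlaps Rbl2 on the opposite strand and had a mean normalized count of 158 over all libraries.

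Rbl1 (ENSMUSG00000027641.13, chr2:157145893-157204534) was highest in the YFP+ and Thy1hi cells. It had 334, 248 and 472 normalized counts in YFP+ cells, 361, 295, 345 and 344 in Thy1hi cells, 182, 233, 232 and 257 in Thy1- cells, 202, 136, 165 and 226 in HFSCs, and 165, 136, 130, 96 and 157 in DETCs. All Thy1hi libraries were above all Thy1-, HFSC and DETC libraries. Rbl1 was 1.87-fold higher in Thy1hi cells than in HFSCs (log2 difference 0.90 ± 0.21, adjusted p = 0.00682 by limma, and below the threshold in all 20 alternatives) and 2.48-fold lower in DETCs than in Thy1hi cells (log2 difference -1.31 ± 0.20, adjusted p = 3.05e-05). YFP+ cells exceeded HFSCs by 0.92 (adjusted p = 0.0117 by limma), and by 0.68 without YFP+ replicate 3, where the call was lost (adjusted p = 0.114). The step from Thy1hi to Thy1- cells, 0.58 on the log2 scale, is taken up with that comparison.

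**Figure D2:**
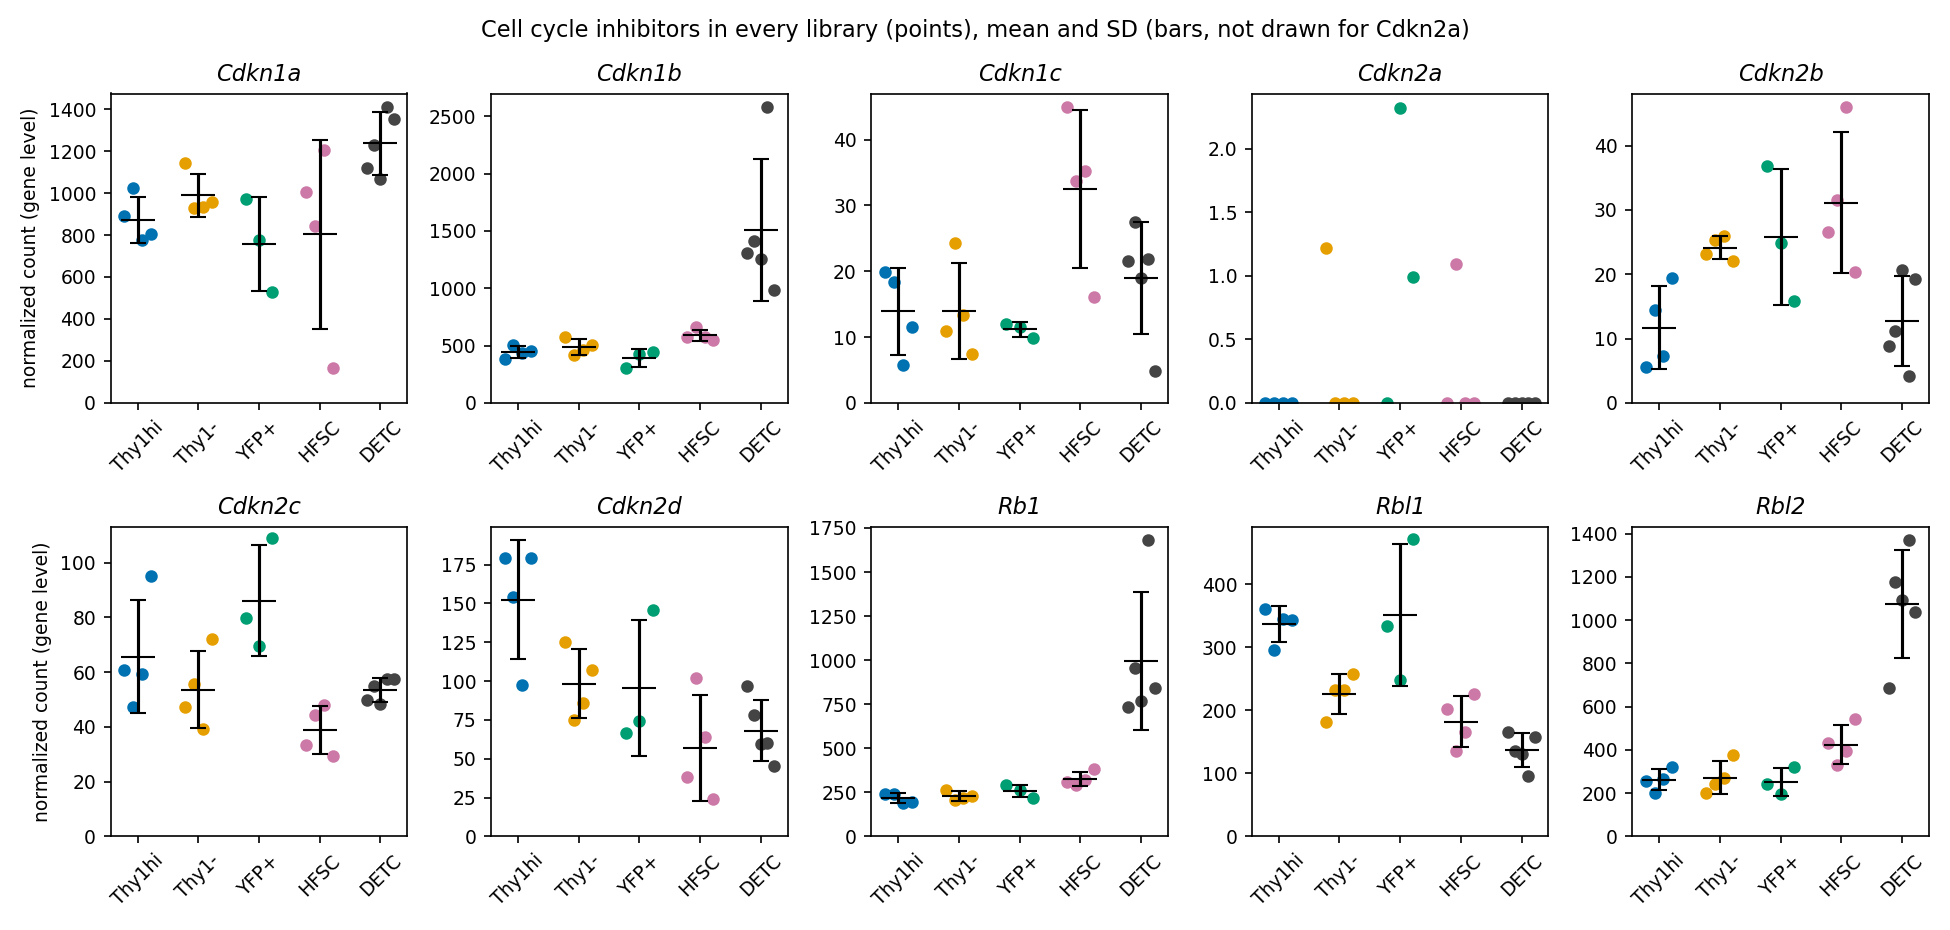
Normalized count of each of the 10 genes in every library (points), with the mean and SD of each population (black, not drawn for Cdkn2a), each panel on its own linear axis from 0. In the panels of Cdkn1b, Rb1 and Rbl2 the 5 DETC points lie above all others, in that of Rbl1 they lie low, and in that of Cdkn1a 1 HFSC point (167) lies far below the rest.

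The comparison of DETCs with Thy1hi cells sets the resident T cells against the keratinocytes that share the Thy1 antigen. Of the 9 members tested, 5 passed the threshold, where 36.6% of all 17204 genes tested did. Cdkn1b, Rb1 and Rbl2 were higher in DETCs (3 of 9, against 19.9% of all genes higher), and Rbl1 and Cdkn2d were lower (2 of 9, against 16.6% of all genes lower). All 5 passed in each of 21 alternatives. The median log2 difference of the 9 members was 0.37, beside -0.00 for all genes tested.

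The DETC libraries differed among themselves in the same members. The library named DETC a, which together with DETC b has a number that no label gives, had the highest Cdkn1b (2584), Rb1 (1681) and Rbl2 (1372) and the lowest Rbl1 (96). It also had the highest sum of the T cell markers (44100, against 21784 to 29520 in the other DETC libraries) and the lowest sum of the basal keratinocyte markers (12376, against 42181 to 58632). Without it the log2 difference from Thy1hi cells remained 1.48 for Cdkn1b and 1.93 for Rb1, and the part of these markers in the differences was not tested. Over all libraries, 8 of 8 T cell markers were higher and 7 of 7 basal markers lower in DETCs than in Thy1hi cells.

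The comparisons of DETCs with the other populations share the DETC libraries. From Thy1- cells, DETCs differed in 4 of 9 members (34.1% of all genes), with log2 differences of 1.56 for Cdkn1b, 2.05 for Rb1, 1.98 for Rbl2 and -0.73 for Rbl1. From YFP+ cells they differed in 4 of 9 (38.1% of all genes), with 1.89 for Cdkn1b, 1.88 for Rb1, 2.08 for Rbl2 and -1.33 for Rbl1. From HFSCs they differed in 4 of 9 (39.7% of all genes), namely Cdkn1b, Rb1, Rbl2 and Cdkn2b, while the difference of Rbl1 was -0.41 (adjusted p = 0.119 by limma). Over the 36 pairs of populations that are neighbours in a member's order of levels, 3 passed the threshold, and each was the step from DETCs to HFSCs, in Cdkn1b, Rb1 and Rbl2. Neighbours are chosen by the observed order, so each gap is no wider than that of a pair spanning it. The share over all genes is not given here, and neighbours that did not pass are not thereby shown to be alike.

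**Figure D3:**
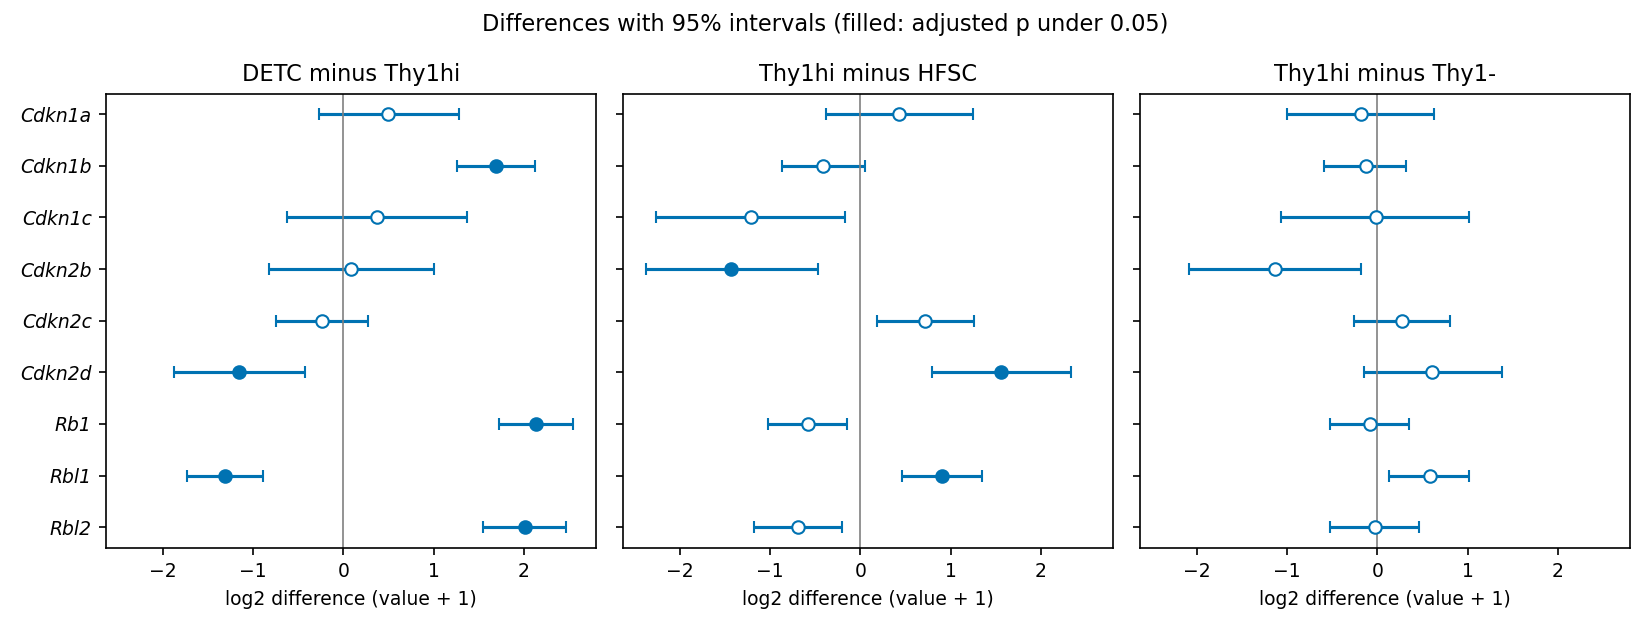
Differences in log2(normalized count + 1) of the 9 members tested, with 95% intervals, for DETCs minus Thy1hi cells, Thy1hi cells minus HFSCs and Thy1hi minus Thy1- cells. Filled points passed an adjusted p of 0.05. Rb1 (2.13), Rbl2 (2.01) and Cdkn1b (1.69) lie far to the right in the first panel, 3 points are filled in the second and none in the third.

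Thy1hi cells were compared with HFSCs as 2 keratinocyte populations that the study holds to contain stem cells. Of the 9 members, 3 passed the threshold (13.4% of all genes did). Cdkn2d and Rbl1 were higher in Thy1hi cells (2 of 9, against 6.51% of all genes), and Cdkn2b was lower (1 of 9, against 6.86%). The median log2 difference of the members was -0.41, beside 0.02 for all genes. Rb1, Rbl2 and Cdkn1b had lower values in every Thy1hi library than in every HFSC library without passing the threshold (adjusted p of 0.0698, 0.0571 and 0.227 by limma). The share of all genes whose libraries did not overlap is not given here. Of the marker lists, 7 of 7 HFSC, 3 of 4 melanocyte and 1 of 8 suprabasal markers were lower in Thy1hi cells and 2 of 7 basal markers higher. The suprabasal markers summed to 11356 to 34279 in Thy1hi cells and 27794 to 56668 in HFSCs, and their part in these differences was not tested.

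In Thy1- cells against HFSCs, 0 of 9 members passed by limma, edgeR or DESeq2, where 6.08% of all genes passed by limma. An unadjusted p under 0.05 by limma was found for 4 members and for 4085 of all 17204 genes. The largest differences were -1.19 for Cdkn1c, 0.95 for Cdkn2d (95% interval 0.18 to 1.71, adjusted p = 0.128 by limma) and -0.66 for Rbl2 (95% interval -1.15 to -0.17, adjusted p = 0.0978). Without Thy1- replicate 4, Rbl2 passed (adjusted p = 0.0334 by limma), and without HFSC replicate 2, Cdkn2d did (adjusted p = 0.0348). Whether the differences of Thy1hi and Thy1- cells from HFSCs are unequal is the comparison of these 2 populations with each other.

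In that comparison, within the α6+Sca1+ keratinocytes, 0 of 9 members passed by limma, edgeR or DESeq2, where 0.337% of all genes did by limma. There, 2 members had an unadjusted p under 0.05 by limma, as did 1242 of all 17204 genes. Same-numbered Thy1hi and Thy1- libraries deviated together. With the replicate number as a block, in a fit of these 2 populations only, 1 member, Rbl1, passed, where 6.61% of all genes did. Rbl1 was 1.49-fold higher in Thy1hi cells (336 ± 28.6 against 226 ± 31.2 normalized counts, n = 4 each, log2 difference 0.58). Its adjusted p by limma without the block was 0.426 over all libraries and 0.112 in a fit of these 2 populations only. With the block it was 0.0286. Its libraries did not overlap (exact permutation p = 0.0286, the smallest that 4 against 4 allows). That exact test took the libraries as unpaired. Cdkn2d, with a difference of 0.61, had an adjusted p of 0.0606 with the block, and Cdkn2b, with -1.13, one of 0.112 (limma). For the other members the blocked difference was -0.18 for Cdkn1a (95% interval -0.43 to 0.06), -0.13 for Cdkn1b (-0.44 to 0.17), -0.02 for Cdkn1c (-0.92 to 0.87), 0.27 for Cdkn2c (-0.19 to 0.74), -0.08 for Rb1 (-0.37 to 0.20) and -0.03 for Rbl2 (-0.33 to 0.27). The interval of the scarce Cdkn1c was the widest of these 6.

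Markers of other cell states differed in their sums between these 2 populations, in part with overlap. The sums of the suprabasal markers were 11356 to 34279 in Thy1hi and 32248 to 48492 in Thy1- cells, those of the basal markers 187875 to 261309 and 89525 to 157825, those of 6 fibroblast markers 186 to 1946 and 123 to 215, and those of 5 Langerhans cell markers 1415 to 2048 and 2196 to 2922. With the block, 7 of 8 suprabasal markers and 5 of 5 Langerhans cell markers were lower in Thy1hi cells (3.19% of all genes lower). With it, 5 of 7 basal and 4 of 6 fibroblast markers were higher (3.42% of all genes higher). Without the block, 0 markers of these 4 lists passed by limma or edgeR, and by DESeq2 only 2 fibroblast markers did. The part of these markers in the values of Rbl1, Cdkn2d and Cdkn2b was not tested.

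YFP+ cells derive from cells in which the Thy1 promoter was active. Against Thy1hi cells, 0 of 9 members passed by limma, edgeR or DESeq2 (0.0116% of all genes passed by limma). An unadjusted p under 0.05 by limma was reached by 1 member, Cdkn2b, and by 1561 of all 17204 genes. The intervals were wide, from 0.12 to 2.19 for Cdkn2b (log2 difference 1.15), -1.54 to 0.11 for Cdkn2d and -0.46 to 0.50 for Rbl1. Against Thy1- cells, 0 of 9 passed by the same 3 tools (0.761% of all genes, 2 members with an unadjusted p under 0.05 by limma), with 0.60 for Rbl1 (adjusted p = 0.247 by limma). Against HFSCs, 2 of 9 passed (11.6% of all genes), namely Cdkn2c and Rbl1, and neither did without YFP+ replicate 3. The YFP+ libraries also spread widely in the summed suprabasal markers (21116 to 66489), and with 3 libraries no exact test against 4 can go below 0.0571.

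E2F targets and cycling genes, the genes that pocket proteins hold silent, were the list with the most calls. Of 22 E2F target and cycling genes, 20 were higher in Thy1hi cells than in HFSCs, where 6.51% of all genes were (median log2 difference 1.76, beside 0.02 for all genes), led by Ccnb1 (2.48), Mki67 (2.27) and Ccnb2 (2.20). In DETCs 20 were lower than in Thy1hi cells and 1 was higher (16.6% and 19.9% of all genes, median -1.93), with Cdc20 at -2.69, Ccnb2 at -2.58 and Ccnb1 at -2.54. Mki67, the proliferation antigen, had mean normalized counts of 4471 in Thy1hi, 2508 in Thy1-, 5383 in YFP+ cells, 905 in HFSCs and 1229 in DETCs, and Top2a 2022, 1077, 2111, 451 and 514. In Thy1- cells 6 of 22 were higher than in HFSCs (2.56% of all genes were higher and 3.52% lower), and in Thy1hi cells 1 of 22, Top2a (0.92, adjusted p = 0.0476 by limma), was higher than in Thy1- cells (0.116% of all genes were higher and 0.221% lower). With the block, in a fit of Thy1hi and Thy1- cells only, this became 16 of 22 (3.42% of all genes higher). By edgeR and DESeq2 without the block it was 0 and 5 of 22, and 18 had an unadjusted p under 0.05 by limma. Rbl1 passed in the same 2 comparisons, Thy1hi cells against HFSCs and DETCs against Thy1hi cells, with the signs of these medians.

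Among the 10 G1 cyclins and kinases are the direct targets of the inhibitors. In Thy1hi cells against HFSCs 4 were higher and 0 lower (6.51% and 6.86% of all genes), with Ccne1 at 1.46, Ccne2 at 1.28 and Ccnd2, the most abundant of them (3903 against 1728 normalized counts), at 1.19. In DETCs against Thy1hi cells 4 were lower (16.6% of all genes), among them Cdk2 (-1.40) and Cdk4 (-0.91), and 1, Ccnd3, was higher (0.80, with 19.9% of all genes higher). Cdk6, which with CDK4 is bound by INK4 proteins, had mean counts of 849 in Thy1hi cells, 383 in HFSCs and 574 in DETCs. In Thy1- cells against HFSCs 1 was higher (2.56% of all genes), and in Thy1hi against Thy1- cells 0 passed by limma, edgeR or DESeq2 without the block (4 with an unadjusted p under 0.05 by limma) and 3 were higher with it (3.42% of all genes).

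Of 15 E2F and DREAM partners, 6 were higher and 0 lower in Thy1hi cells than in HFSCs (6.51% and 6.86% of all genes), led by the atypical repressors E2f7 (2.43) and E2f8 (2.13) and by E2f1 (1.62). E2f7 also passed in Thy1hi against Thy1- cells (203 ± 40.2 against 88.8 ± 22.1 normalized counts, log2 difference 1.20, adjusted p = 0.0357 by limma), and 4 partners were higher with the block (0.116% and 3.42% of all genes were). In DETCs 6 were lower than in Thy1hi cells (16.6% of all genes), E2f8 by a difference of -2.32 and E2f7 of -1.74, and 1 was higher (19.9% of all genes): Lin54, the DNA-binding subunit of DREAM, with 4331 ± 2233 normalized counts against 363 ± 66 (log2 difference 3.48, adjusted p = 1.08e-09 by limma). Rbbp4, a histone-binding subunit shared by several complexes, had the largest mean of this list after Lin54 and differed by 0.27 (adjusted p = 0.178). In Thy1- cells 3 partners were higher than in HFSCs (2.56% of all genes).

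Of the 7 tested genes for p27 and p21 turnover (8 were listed, and Skp1 is not a row of the table under this name), 2 were higher in Thy1hi cells than in HFSCs (6.51% of all genes): Dtl, of the CRL4 ligase that degrades p21 (1.54), and Fbxw7, the F-box protein for cyclin E (1.02). In DETCs 3 were lower than in Thy1hi cells (16.6% of all genes), with Cks1b (-1.26), Rbx1 (-0.53) and Cops5 (-0.44), while Cul1 differed by -0.22 (adjusted p = 0.19 by limma). In Thy1- cells 1 was higher than in HFSCs (2.56% of all genes), and in Thy1hi cells 1 was higher than in Thy1- cells with the block (3.42% of all genes), against 0 without it by limma, edgeR or DESeq2 (1 with an unadjusted p under 0.05 by limma).

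Among 18 regulators of inhibitor transcription, Foxo1, of a family of factors known to activate Cdkn1b and Rbl2, had 5358 ± 3016 normalized counts in DETCs and 479 ± 41.2 in Thy1hi cells (log2 difference 3.33, adjusted p = 4.29e-09 by limma). Foxo3 and Foxo4 of the same family did not pass there (0.33 and 0.41, adjusted p of 0.097 and 0.17 by limma). The part of these factors in the values of Cdkn1b and Rbl2 was not tested. Cbx7, a Polycomb subunit that represses Cdkn2a, was higher in DETCs as well (2.38) and lower in Thy1hi cells than in HFSCs (-1.43), and Trp73 was lower in DETCs (-2.30). In all, 3 were higher and 4 lower in DETCs than in Thy1hi cells, a share close to that of all genes (19.9% higher and 16.6% lower). Against HFSCs, 3 were higher and 2 lower in Thy1hi cells (6.51% and 6.86% of all genes), led by Smad3, a mediator of TGF-β signals (1.98), with Ezh2 at 0.72, and 2 were higher and 1 lower in Thy1- cells (2.56% and 3.52%). Klf4 and Trp63, the most abundant of the list, differed by -0.04 and 0.15 between Thy1hi cells and HFSCs (adjusted p of 0.944 and 0.793 by limma). Between Thy1hi and Thy1- cells 0 passed by limma, edgeR or DESeq2 without the block (1 with an unadjusted p under 0.05 by limma) and 1 was higher with it (3.42% of all genes).

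The 16 p53 targets other than Cdkn1a were divided. In Thy1hi cells 5 were higher and 2 lower than in HFSCs (6.51% and 6.86% of all genes), led by Gadd45a (1.97), Sesn2 (1.96) and Pmaip1 (1.85). In DETCs 3 were higher and 4 lower than in Thy1hi cells, again a share not far from that of all genes (19.9% and 16.6%), with Bax at 1.88, Pmaip1 at -1.67 and Plk2 at -1.41. In Thy1- cells 2 were higher and 1 lower than in HFSCs (2.56% and 3.52% of all genes), and between Thy1hi and Thy1- cells 0 passed by limma, edgeR or DESeq2 without the block (1 with an unadjusted p under 0.05 by limma) and 1 in each direction with it (3.42% of all genes higher and 3.19% lower). Btg2 and Trp53inp1 had the largest means, and in HFSCs the SD of Btg2 was 2063 about a mean of 3330. In YFP+ against Thy1hi cells, 0 of the 88 genes of these 6 lists passed by limma or edgeR and 1 by DESeq2. Of them, 9 had an unadjusted p under 0.05 by limma, as did 1561 of all 17204 genes.

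**Figure D4:**
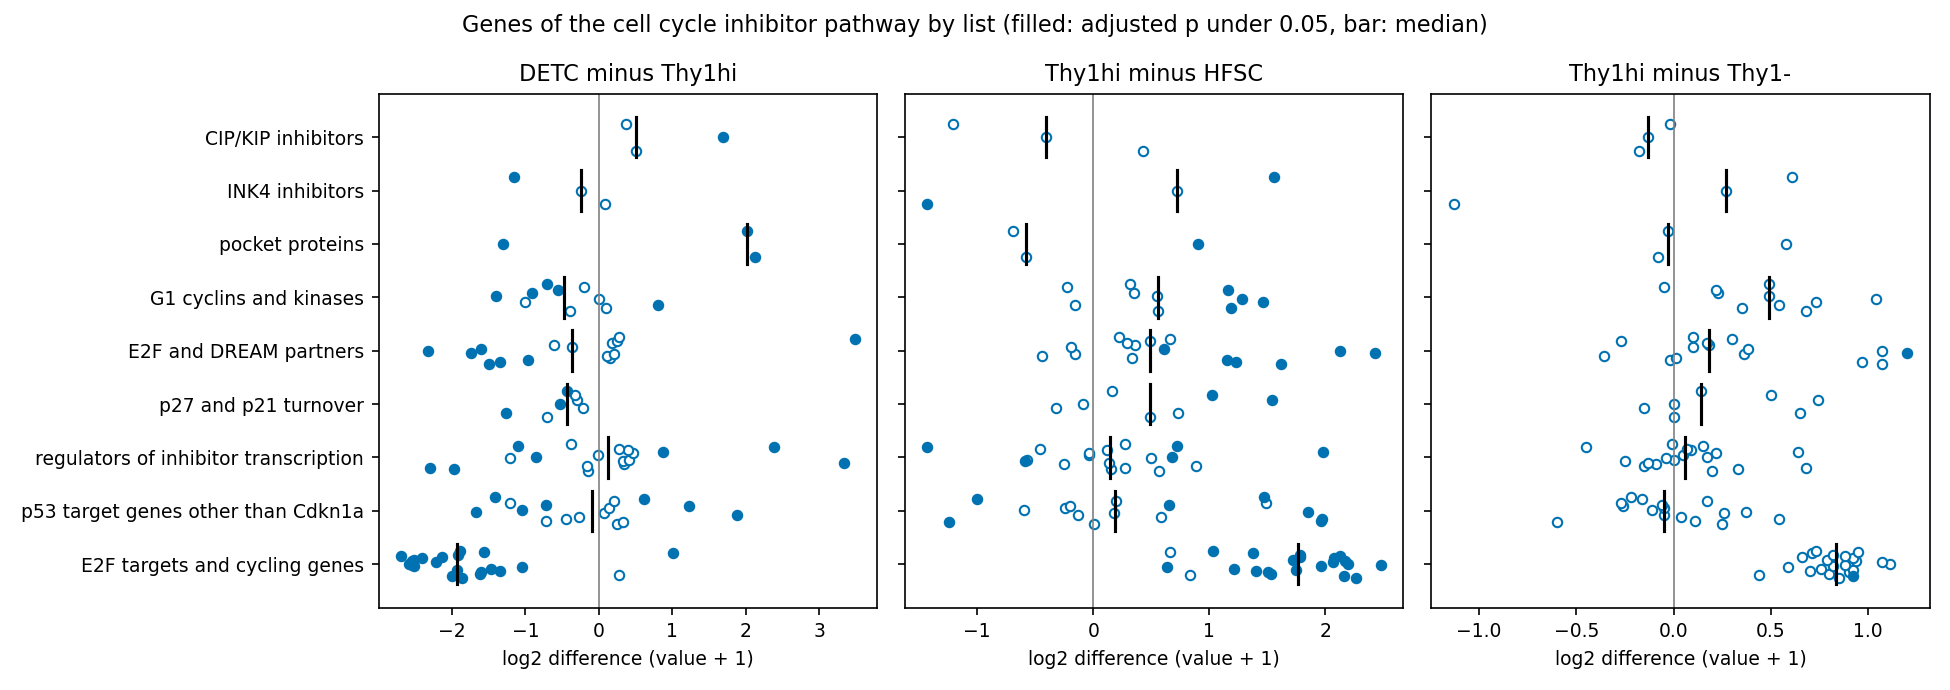
Log2 differences of the genes of each list (points, filled where the adjusted p was under 0.05, with the median of the list as a bar) in DETCs minus Thy1hi cells, Thy1hi cells minus HFSCs and Thy1hi minus Thy1- cells, each panel on its own axis. The E2F targets have medians of -1.93, 1.76 and 0.84, with 21, 20 and 1 points filled.

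The genes most alike in pattern were sought by Pearson r of log2(value + 1) over the 20 libraries, which are not independent of their population. For Rb1 they were Dock5 (r = 0.973), Ptpdc1 (0.972) and Pacsin2 (0.971), for Rbl2 Zbtb38 (0.965), Pik3r1 (0.962) and Mxd4 (0.961), and for Cdkn1b Dyrk2 (0.970), Gm19721 (0.965) and Swap70 (0.962). For Rbl1, chosen after its values were seen, they were Anln (0.958), Hells (0.950) and Tyms (0.941), of which Tyms is in the list of E2F targets. For Cdkn2b, also chosen after its values were seen, they were Dmkn (0.912), Krtdap (0.909) and Ivl (0.908), of which the last 2 are among the suprabasal markers.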

How the data were processed

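RNA of 20 libraries from 5 sorted populations was analysed. The deposited signal is a table of normalized counts per Ensembl gene: per the methods, the authors mapped single reads with STAR (mm10), used featureCounts for counting and scaled the libraries by DESeq2 size factors. The values were whole reads divided by 1 factor per library (0.729 to 1.43). Replicate 4 of the Thy1- cells was put back into row order first, since its values follow names sorted without hyphens. This moved 3212 genes, none of the 10 members, and raised its correlation at the moved genes from 0.0606 to 0.932. Which library belongs to which of the 2 sequencing batches is not given, so batch could not be fitted.

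The 17204 genes that reached a normalized count of 10 in 3 or more libraries were fitted with limma 3.58.1 (R 4.3.3, trend) on log2(value + 1) in 1 fit over all libraries, two-sided, with Benjamini-Hochberg adjustment over all of them and a threshold of 0.05. Fold changes are on that scale. Exact permutation tests of mean log2 values used scipy 1.17.1 and took the libraries as unpaired. Code was tested on simulated data. Exon lengths and overlaps are from GENCODE M21. Alternatives included edgeR 4.0.16 and DESeq2 1.42.0 on whole reads. Same-numbered Thy1hi and Thy1- libraries correlated in their deviations (r from 0.293 to 0.716 over 4 pairs), so the replicate number pairs them. In YFP+ against Thy1hi cells it did so at most in part (r from -0.0402 to 0.333 over 3 pairs, and -0.256 to 0.163 over the 9 others). In the remaining comparisons it did not.

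The members and gene lists were chosen with earlier results of these data known. Of each list, the 2 genes with the largest mean and up to 3 called genes with the largest change in each of 3 comparisons are named. Foxo3 and Foxo4 are named besides, beside Foxo1. Likeness is given for the 3 members with the widest range of population means, and for Rbl1 and Cdkn2b, chosen after their values were seen. Skin staining, cultures and lineage tracing were not analysed here.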

Additional observations from a re-analysis of the deposited data

Results flagged for a closer look

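In 36 sets of 4 or 5 libraries, the gap of the highest or lowest library from its nearest neighbour was compared with Dixon's 95% critical value, which chance exceeds in about 1 of 20 sets, and 3 libraries exceeded it. Cdkn1b was 2584 normalized counts in DETC a, against 982 to 1416 in the 4 other DETC libraries, and Rb1 was 1681 there, against 737 to 957. The same library had the highest T cell and the lowest basal keratinocyte marker sums of its population, and their part in these values was not tested. Cdkn1a was 1142 in Thy1- replicate 1, against 928 to 957 in the 3 others.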

How the results depend on the processing

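Over 9 members, 5 comparisons and their alternatives, 890 log2 differences were recomputed, of which 836 kept their direction and side of the threshold, 12 lost a call, 18 gained one and 24 changed sign, all of these at members without a call. The 5 calls in DETCs against Thy1hi cells and that of Rbl1 in Thy1hi cells against HFSCs held in every alternative run. In Thy1hi cells against HFSCs, the members called rose from 3 to 6 with quantile normalization and to 5 with DESeq2. With DESeq2 the calls over all 17204 genes rose as well, from 2300 to 3394, and those with quantile normalization are not given here. In Thy1- cells against HFSCs, the count was 1 with both 4th replicates left out and 0 to 1 when leaving out a library in turn. With the replicate block, the members called were 1 in Thy1hi against Thy1- cells, where libraries pair, and 2 in Thy1hi cells against HFSCs, where they do not (1 of 4 Thy1hi libraries correlated best with its own number). In that fit Cdkn2d and Cdkn2b lost their calls (adjusted p = 0.0819 and 0.156 by limma), Rbl1 kept its call and Rbl2 gained one (0.0408). The other comparisons kept 0 members, or 6 in place of 5 in DETCs against Thy1hi cells, where Cdkn1a was added. In these comparisons 1 of 5 DETC libraries, 1 of 4 Thy1- and 2 of 3 YFP+ libraries correlated best with their own number. Of all 17204 genes, the block called 1137 in place of 58 in Thy1hi against Thy1- cells and 1369 in place of 2300 in Thy1hi cells against HFSCs. It called 7340 in place of 6289 in DETCs against Thy1hi cells, 329 in place of 1046 in Thy1- cells against HFSCs, and 9 in place of 2 in YFP+ against Thy1hi cells.

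The sign changes lay in Thy1hi minus Thy1- at Cdkn1c (0.101 with quantile normalization, -0.263 to 0.319 leaving out a library) and Rbl2 (0.0364 with both 4th replicates left out, -0.166 to 0.141), in Cdkn1a against HFSCs (-0.212 to 0.734 for Thy1hi and -0.0282 to 0.918 for Thy1- cells), in DETCs minus Thy1hi at Cdkn2b (-0.00759 with quantile normalization, -0.182 to 0.401), and in YFP+ minus Thy1hi at Cdkn1c (0.0243 and -0.508 to 0.0391), Rbl1 (-0.00218 and -0.218 to 0.242) and Rbl2 (0.0341 with the replicate block or both 4th replicates left out, -0.259 to 0.102). The cause was not tested, except that HFSC replicate 4 alone turned Cdkn1a. Depth limits Cdkn1c and Cdkn2b most, at 4 to 39 and 3 to 43 reads per library.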
